A study of Mus musculus with 15 samples.

Results

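A set of 9 genes of the cell's NADPH-based defence against oxidants were followed here through all 15 libraries of an RNA sequencing study of GL261, a mouse glioma cell line. They were the sensor pair Nfe2l2 and Keap1, the antioxidant genes Nqo1, Txnrd1, Srxn1, Txn1 and Prdx1, and the pentose phosphate enzymes Pgd and Tkt. The genes were picked by name, and all 9 were found by symbol among the 34259 genes of the count table. All 9 also passed the filter on low counts, which left 17497 genes to test.

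The study held 5 groups of 3 libraries, all of wild-type genotype and all collected on day 6. In 3 groups, cells labelled Hoechst-CD133+ were taken up for 20 min on ice in a freeze-dried hydrogel that the labels call chiral, and then cultured with a cytokine cocktail. These groups were D-gel@GSNP, its counterpart L-gel@GSNP, and D-gel@NP; D and L tell the hydrogels apart, and GSNP and NP are code names that the labels do not explain. The PBS group held cells of the same label with PBS and the cytokine cocktail, and no ice step was named for it. The non-SP group held untreated cells that lay outside the side population, which is the dye-effluxing (Hoechst-low) share of cells, and they were written as Luci+ in the study's design text. New medium was added to every group on days 2 and 4. A comparison of a hydrogel group with PBS therefore includes the ice step, and a comparison with non-SP includes the cell fraction and the cytokines. The labels do not say that replicates came from separate cultures, so p-values measure only the spread between these libraries.

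NRF2, the protein of Nfe2l2, is a transcription factor that is bound by KEAP1 and handed over for degradation in unstressed cells. Oxidants and electrophiles modify KEAP1, and NRF2 then builds up and binds antioxidant response elements near its target genes. NRF2 is controlled largely at the level of the protein, which RNA sequencing does not measure. The targets include NQO1, a quinone reductase, and the thioredoxin system: thioredoxin reductase (Txnrd1), thioredoxin (Txn1), peroxiredoxin (Prdx1) and sulfiredoxin (Srxn1), which repairs overoxidised peroxiredoxin. This system draws its electrons from NADPH, which the oxidative branch of the pentose phosphate pathway supplies, with PGD among its enzymes, while transketolase (Tkt) links the non-oxidative branch to glycolysis.

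The core letters of the antioxidant response element, TGACNNNGC, were searched on both strands in RefSeq promoter windows of build GRCm38.p6, each holding 250 bases before and 50 bases after a transcription start. They were found in at least 1 window of 5 of the 9 genes, against 14% of the 27025 genes in the table. The 5 genes were Nfe2l2, Txnrd1, Srxn1, Prdx1 and Pgd, and the windows of Keap1, Nqo1, Txn1 and Tkt held no match. Counted by window, 5 of the 12 windows of the 9 genes held a match, against 12.4% of 32851 windows. Txnrd1 and Pgd had more than 1 window, and the matches of Srxn1 and Pgd lay after the start. In the other gene lists described below, 7 of 18 NRF2 targets, 3 of 9 NRF2 regulators and 2 of 11 pentose phosphate genes with a window held one. None of 13 thioredoxin and peroxiredoxin genes and none of 7 NADPH supply genes did. The first 250 bases, 5′ to 3′ on the gene's strand, are shown for 4 genes, with the match in capitals: Nfe2l2 as the gene of the factor itself, Txnrd1 and Prdx1 as antioxidant genes whose levels went different ways, and Nqo1 as the gene whose level moved most. They lie on chr2:75704664-75704913 (minus strand), chr10:82858956-82859205 (plus), chr4:116685349-116685598 (plus) and chr8:107403206-107403455 (minus), in the order of the lines.
Nfe2l2: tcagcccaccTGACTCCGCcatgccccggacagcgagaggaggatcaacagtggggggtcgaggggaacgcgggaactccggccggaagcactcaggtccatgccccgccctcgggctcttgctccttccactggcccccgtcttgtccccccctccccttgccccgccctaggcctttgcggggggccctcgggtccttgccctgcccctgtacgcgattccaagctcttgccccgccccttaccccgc
Txnrd1: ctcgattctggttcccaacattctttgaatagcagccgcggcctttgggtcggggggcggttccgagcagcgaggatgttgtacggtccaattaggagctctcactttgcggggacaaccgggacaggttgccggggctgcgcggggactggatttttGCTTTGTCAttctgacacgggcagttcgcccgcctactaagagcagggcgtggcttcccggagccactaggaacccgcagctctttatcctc
Prdx1: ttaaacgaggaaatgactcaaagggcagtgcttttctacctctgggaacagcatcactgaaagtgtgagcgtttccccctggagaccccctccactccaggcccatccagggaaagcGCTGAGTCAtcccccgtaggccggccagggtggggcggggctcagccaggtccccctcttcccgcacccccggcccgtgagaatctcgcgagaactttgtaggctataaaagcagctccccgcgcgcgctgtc
Nqo1: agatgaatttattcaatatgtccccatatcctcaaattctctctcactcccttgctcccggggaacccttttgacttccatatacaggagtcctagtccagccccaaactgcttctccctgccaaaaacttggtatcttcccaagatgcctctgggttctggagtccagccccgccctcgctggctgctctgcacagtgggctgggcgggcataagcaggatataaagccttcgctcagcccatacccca
On the strand shown, the match in Prdx1 reads GCTGAGTCA and begins 133 bases before the start, and that in Txnrd1 reads GCTTTGTCA and begins 92 bases before it. The match in Nfe2l2 lies the other way round, reads TGACTCCGC and begins 240 bases before the start. A match is a run of letters, not a measured binding site, and the lack of one speaks only of these windows.

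Levels are given as CPM, the count scaled to library size with TMM factors; differences are on the log2 scale from a model fitted to all tested genes, and a gene counts as called where its p, adjusted by Benjamini and Hochberg over all tested genes, is under 0.05 (edgeR quasi-likelihood test). The total count ran from 16.6 to 98.1 M (mega) per library, and the lowest count of any of the 9 genes in any library was 361. Per unit of length, on the deposited FPKM scale, Prdx1 was the most abundant of the 9 with a mean of 366 FPKM over the libraries, followed by Txn1 with 330.1 FPKM. Nfe2l2 had 65.3, Tkt 46.2, Txnrd1 35.6, Pgd 27.9, Srxn1 24.0, Nqo1 17.0 and Keap1 11.8 FPKM.

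D-gel@GSNP and non-SP were near each other over the whole transcriptome: 73 of 17497 genes (0.417%) were called between these groups, while 55% were called between D-gel@GSNP and PBS. The labelled marker gives no check of the groups, because Prom1, the gene of CD133, had 8, 35, 10 and 19 counts over the 3 libraries of D-gel@GSNP, L-gel@GSNP, D-gel@NP and PBS, and 2 in non-SP. Mitochondrially encoded genes took 3.00 ± 0.316% of counts in D-gel@GSNP, 4.50 ± 0.192% of counts in L-gel@GSNP, 4.63 ± 0.191% of counts in D-gel@NP, 5.97 ± 0.343% in PBS and 2.86 ± 0.0554% in non-SP (SD, n = 3). Leaving those genes out changed the number of called genes among the 9 in no comparison, although between L-gel@GSNP and PBS Nfe2l2 gained a call (adjusted p = 0.0291) and Srxn1 lost one (adjusted p = 0.0835). All results below that involve D-gel@GSNP rest on its 3 libraries. Fitted without them, the comparisons among the other 4 groups called 8 of 9 genes for PBS against non-SP, 6 for L-gel@GSNP against PBS, 6 for D-gel@NP against PBS, 2 for L-gel@GSNP against D-gel@NP, and all 9 in the test of any difference.

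All 9 genes differed among the 5 groups in the test of any difference, in which 74.1% of all tested genes were called. The ratio of the highest to the lowest group mean was 2.87 for Nqo1, 1.85 for Nfe2l2, 1.53 for Txn1, 1.51 for Txnrd1 and 1.40 for Tkt. It was 1.34 for Srxn1, 1.31 for Keap1, 1.24 for Pgd and 1.16 for Prdx1. The genes did not share one order of the groups, as the plot of levels by library shows. Nfe2l2 and Nqo1 were lowest in D-gel@GSNP and non-SP, whereas Txnrd1, Txn1 and Tkt were highest there. In libraries made from a whole culture, fewer cells of a type and less RNA per cell cannot be told apart.

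**Figure D1:**
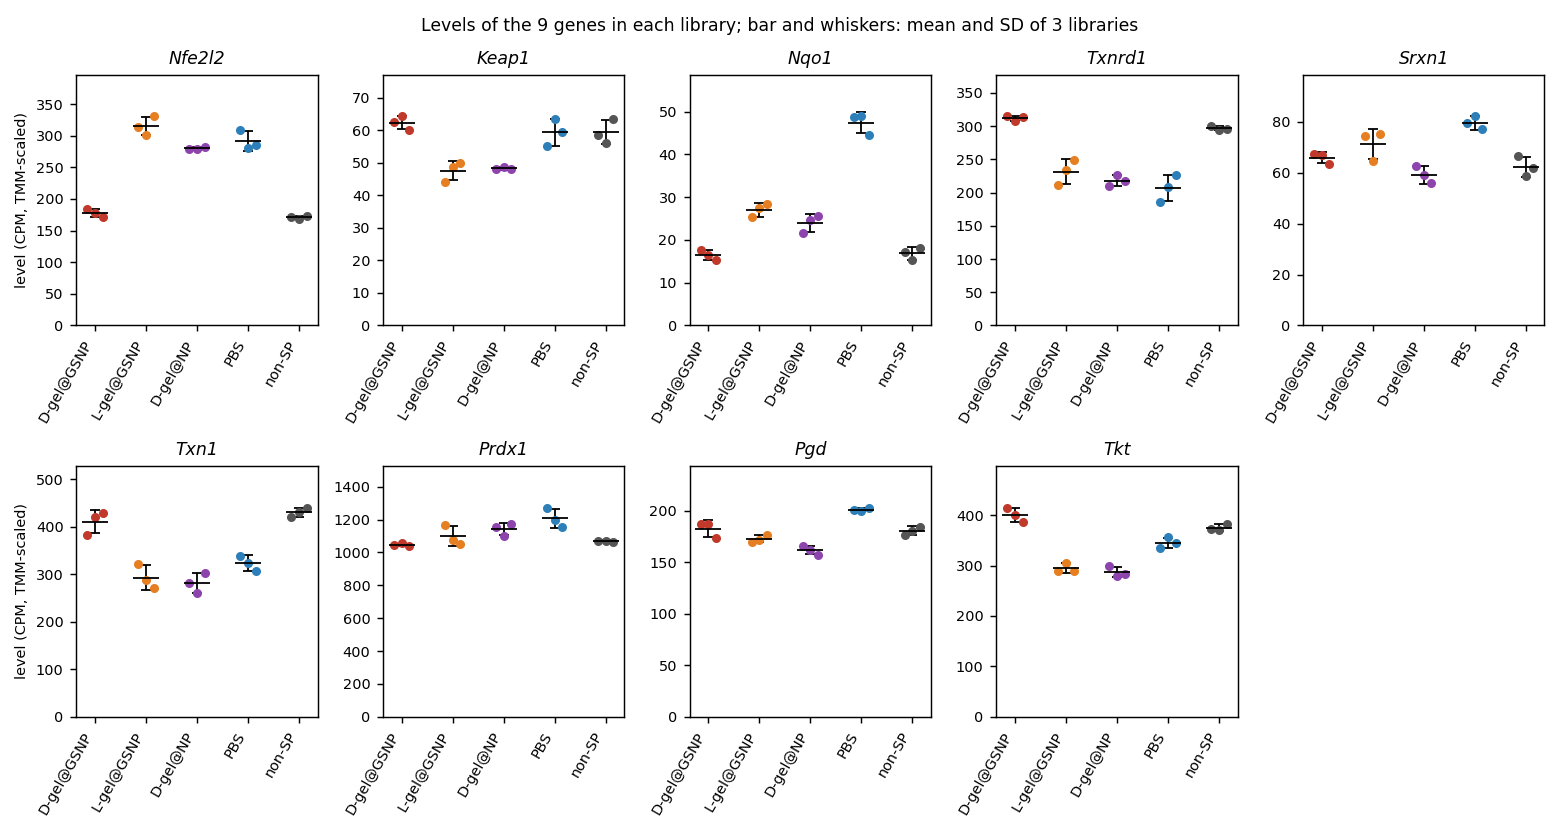
Level of each of the 9 genes (CPM, vertical axis from 0) in every library of the 5 groups (horizontal axis); dots are libraries, the bar and whiskers are the mean and SD of 3. Nqo1 is highest in PBS at 47.4 CPM and lowest in D-gel@GSNP at 16.5 CPM, while Txnrd1 is highest in D-gel@GSNP at 312 CPM.

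Nfe2l2 formed a high set of groups and a low set. It had 185, 177 and 172 CPM in the D-gel@GSNP libraries, 314, 302 and 331 in L-gel@GSNP, 279, 279 and 282 in D-gel@NP, 309, 280.0 and 285 in PBS and 172, 168 and 173 in non-SP. Every library of L-gel@GSNP, D-gel@NP and PBS was above every library of D-gel@GSNP and non-SP. PBS exceeded non-SP by 0.77 on the log2 scale (SE 0.0484, adjusted p = 1.12e-11), and D-gel@GSNP was below PBS, at a log2 difference of -0.71 (SE 0.0483, adjusted p = 3.22e-11). L-gel@GSNP and PBS, next to each other at the top, were not called apart (log2 difference 0.12, adjusted p = 0.0544), although the call was gained without L-gel@GSNP 2, any 1 of the D-gel@NP libraries or PBS 1, with adjusted p-values between 0.00904 and 0.046. With all libraries kept it was also gained under 9 alternatives, at adjusted p-values from 0.00351 with upper-quartile factors to 0.048 with a replicate block, DESeq2 (0.0365) and limma (0.019 to 0.035) among them. D-gel@NP did not differ from PBS in the test (log2 difference -0.06, adjusted p = 0.407). The summed fibroblast and astrocyte markers had the same split, and so did the macrophage and microglia sum given below. The sum of 5 markers listed for GL261 (Prom1, Nes, Cd44, Abcg2 and Abcb1a) had it too. That sum was 605 to 617 CPM in D-gel@GSNP, 949 to 1018 in L-gel@GSNP, 987 to 1050 in D-gel@NP, 1200 to 1302 in PBS and 587 to 599 in non-SP. Most of it was Cd44, while Nes was highest in D-gel@GSNP and non-SP, with means of 3.38 and 3.70 CPM. The 4 of 5 fibroblast markers in the table ran from 688 to 712 CPM in D-gel@GSNP, 1309 to 1468 in L-gel@GSNP, 1454 to 1511 in D-gel@NP, 1291 to 1366 in PBS and 693 to 721 in non-SP, nearly all of it Dcn, with no count of Col1a2 in D-gel@NP. The other fibroblast markers did not share the split: Col1a1 had means of 14.4 CPM in D-gel@GSNP, 3.06 CPM in L-gel@GSNP, 1.44 CPM in D-gel@NP, 1.58 in PBS and 13.4 in non-SP. Pdgfra had 35.8 CPM in D-gel@GSNP, 14.4 CPM in L-gel@GSNP, 23.2 CPM in D-gel@NP, 50.5 in PBS and 35.0 in non-SP. The 4 of 5 astrocyte markers ran from 2.37 to 3.50 CPM in D-gel@GSNP, 19.2 to 21.8 in L-gel@GSNP, 22.5 to 26.2 in D-gel@NP, 25.6 to 32.6 in PBS and 2.37 to 3.37 in non-SP, with no count of Slc1a3 in D-gel@GSNP and non-SP. Nearly all of the astrocyte sum came from Slc1a2 and Aldoc, with PBS means of 24.5 and 3.54 CPM, and the means of both had the split. Gfap did not share it: its mean was highest for PBS, at 0.28 CPM, but L-gel@GSNP (0.1375 CPM) lay below D-gel@GSNP (0.1809 CPM). No group mean of Slc1a3 was above 0.0486 CPM. The summed endothelial and oligodendrocyte markers, each 4 of 5 in the table, did not have the split, with at most 1.77 and 6.37 CPM in any library. The summed neuron markers ran from 8.38 to 11.8 CPM in L-gel@GSNP, 4.51 to 4.59 in D-gel@NP and 0.837 to 1.70 in PBS. They ran from 0.466 to 0.781 CPM in D-gel@GSNP and 0.719 to 1.07 in non-SP. The group means of this sum had the split, but PBS and non-SP libraries overlapped. So it was for the lymphocyte sum, with at most 0.648 CPM in any library. The part of such cells in the Nfe2l2 result was not tested.

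Keap1 ran nearly the other way among the hydrogels. It had 62.7, 64.3 and 60.2 CPM in D-gel@GSNP, 44.3, 48.7 and 49.9 in L-gel@GSNP, 48.1, 48.8 and 48.1 in D-gel@NP, 55.2, 63.5 and 59.5 in PBS and 58.5, 56.3 and 63.5 in non-SP. The libraries of L-gel@GSNP and D-gel@NP were all below those of the other 3 groups. Keap1 fell in L-gel@GSNP against PBS (log2 difference -0.32, adjusted p = 0.000257) and in D-gel@NP against PBS (log2 difference -0.30, adjusted p = 0.00118). PBS and non-SP had almost the same mean, 59.4 ± 4.13 and 59.4 ± 3.67 CPM (SD, n = 3 each), with a 95% interval of the log2 difference from -0.13 to 0.13. Reads of the antisense gene Gm16754, which overlaps Keap1 exons and holds 942 counts in all beside 36630 for Keap1, could not be told apart if strand was not used in counting, which is not stated.

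Nqo1 had the widest range of the 9 genes. It had 17.7, 16.4 and 15.4 CPM in D-gel@GSNP, 25.3, 27.4 and 28.5 in L-gel@GSNP, 21.5, 24.7 and 25.7 in D-gel@NP, 48.7, 48.9 and 44.6 in PBS and 17.1, 15.3 and 18.2 in non-SP. The PBS libraries stood above all others, L-gel@GSNP and D-gel@NP lay between, and D-gel@GSNP and non-SP overlapped at the bottom. PBS was 2.81-fold above non-SP (log2 difference 1.49, adjusted p = 1.91e-12). All 3 hydrogel groups were below PBS, with log2 differences of -1.52 (SE 0.0839, adjusted p = 1.16e-12) for D-gel@GSNP, -0.81 (SE 0.0813, adjusted p = 4.13e-08) for L-gel@GSNP and -0.98 (SE 0.0836, adjusted p = 1.44e-08) for D-gel@NP.

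A marker sum for macrophages and microglia moved with Nqo1, through Cd68 and Csf1r. The summed level of the 11 of 14 such markers in the count table was 12 to 13 CPM in D-gel@GSNP, 38.6 to 45.3 CPM in L-gel@GSNP, 33.1 to 41.0 in D-gel@NP, 66.8 to 74.7 in PBS and 11.1 to 11.3 in non-SP. Most of it came from Cd68, a lysosomal protein, and Csf1r, a growth factor receptor, with 42.4 and 24.6 CPM in PBS, while Tyrobp had no count in L-gel@GSNP, PBS and non-SP, and Ptprc, the common leukocyte antigen, stood at 0.456 CPM in PBS. Other markers of the list had other orders: Itgam, an integrin, had means of 0.137 CPM in D-gel@GSNP, 3.92 CPM in L-gel@GSNP, 2.48 CPM in D-gel@NP, 1.79 in PBS and 0.0983 in non-SP, Fcer1g and Tmem119 were highest in D-gel@GSNP and non-SP, and Adgre1, Aif1 and Cx3cr1 were highest in L-gel@GSNP or D-gel@NP, at no more than 0.439 CPM. P2ry12, also of the list, was highest in PBS with a mean of 2.07 CPM. Its means in L-gel@GSNP (0.9825 CPM) and D-gel@NP (0.9425) lay below those in D-gel@GSNP (1.405) and non-SP (1.561). The part of macrophages and microglia in the Nqo1 result was not tested. Of all 9732 tested genes with a mean of at least 5 CPM, Cd68 was also the one whose log2 CPM tracked Nqo1 most closely over the 15 libraries (Pearson r = 0.971), ahead of S100a13 (0.968) and Lgals3 (0.965); the 15 points fall into the 5 groups, so this describes shared group differences.

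Txnrd1 and Txn1, the reductase and its substrate, were highest where Nqo1 was lowest. Txnrd1 had 315, 308 and 313 CPM in D-gel@GSNP, 212, 234 and 249.6 in L-gel@GSNP, 210.2, 226 and 218 in D-gel@NP, 187, 209 and 226 in PBS and 301, 295 and 295 in non-SP. All libraries of D-gel@GSNP and non-SP were above all libraries of the other 3 groups. D-gel@GSNP exceeded PBS by 0.59 on the log2 scale (SE 0.0613, adjusted p = 2.77e-08), and PBS was below non-SP, at a log2 difference of -0.52 (SE 0.0613, adjusted p = 2.18e-07). Txn1 had 383, 422 and 429 CPM in D-gel@GSNP, 321, 287 and 271 in L-gel@GSNP, 281, 261 and 302 in D-gel@NP, 339, 324 and 308 in PBS and 420.4, 431 and 440.3 in non-SP, with the same split between groups. It was higher in D-gel@GSNP than in PBS (log2 difference 0.35, adjusted p = 6.67e-05) and lower in PBS than in non-SP (log2 difference -0.41, adjusted p = 8.24e-06). The genes whose levels were most like those of Txnrd1 over the 15 libraries were Zfp609 (r = 0.994), Srrm2 (0.992) and Cul3 (0.991), the last of which encodes the ligase scaffold that KEAP1 works with. The near copy Txn-ps1 holds 125 counts in all beside 227804 for Txn1.

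Srxn1 and Prdx1, the repair enzyme and its substrate, were highest in PBS and moved less. Srxn1 had 67.2, 67.1 and 63.5 CPM in D-gel@GSNP, 74.3, 64.4 and 75.3 in L-gel@GSNP, 62.8, 58.9 and 55.9 in D-gel@NP, 79.4, 82.1 and 76.99 in PBS and 66.4, 58.6 and 61.9 in non-SP. The PBS libraries were above all others, and the remaining groups overlapped in part. Srxn1 rose in PBS against non-SP (log2 difference 0.35, adjusted p = 6.99e-05), and fell in D-gel@GSNP (log2 difference -0.27, adjusted p = 0.000996) and in D-gel@NP (log2 difference -0.43, adjusted p = 2.94e-05) against PBS. Prdx1, the most abundant gene, had 1046, 1055 and 1039 CPM in D-gel@GSNP, 1166, 1079 and 1054 in L-gel@GSNP, 1154, 1103 and 1176 in D-gel@NP, 1273, 1198 and 1157 in PBS and 1073, 1067 and 1061 in non-SP. D-gel@GSNP was below PBS, at a log2 difference of -0.21 (SE 0.0458, adjusted p = 0.000497), and PBS was above non-SP by 0.18 on the log2 scale (SE 0.0458, adjusted p = 0.00196).

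The pentose phosphate enzymes Pgd and Tkt had different orders of groups. Pgd, which makes NADPH in the oxidative branch, had 187, 188 and 174 CPM in D-gel@GSNP, 170.0, 172 and 177 in L-gel@GSNP, 166, 162 and 158 in D-gel@NP, 201, 199.7 and 203 in PBS and 176, 181 and 185 in non-SP. PBS was above every other library, and D-gel@NP was below every other library. Pgd fell in L-gel@GSNP (log2 difference -0.22, adjusted p = 0.000362) and in D-gel@NP (log2 difference -0.32, adjusted p = 1.63e-05) against PBS. Tkt had 415, 400.0 and 387 CPM in D-gel@GSNP, 289, 306 and 288 in L-gel@GSNP, 299, 279 and 284 in D-gel@NP, 336, 356 and 345 in PBS and 372, 370.1 and 383 in non-SP. It formed 3 steps, with D-gel@GSNP and non-SP on top, PBS between, and L-gel@GSNP and D-gel@NP at the bottom. D-gel@GSNP exceeded PBS by 0.21 on the log2 scale (SE 0.0450, adjusted p = 0.00032), while L-gel@GSNP (log2 difference -0.23, adjusted p = 0.000222) and D-gel@NP (log2 difference -0.27, adjusted p = 0.000106) were below PBS.

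PBS against non-SP compares Hoechst-CD133+ cells under cytokines with untreated non-SP cells. Nfe2l2, Nqo1, Srxn1, Prdx1 and Pgd were higher in PBS, Txnrd1, Txn1 and Tkt were lower, and Keap1 was not called. That is 8 of 9 genes, in a comparison where 53.7% of all tested genes were called, 27.6% higher and 26.1% lower. The median size of the log2 difference was 0.35 over the 9 genes and 0.40 over all tested genes. Within the antioxidant targets the direction was split: Nqo1, Srxn1 and Prdx1 rose while Txnrd1 and Txn1 fell.

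D-gel@GSNP against PBS compares cells in a D hydrogel with cells in PBS. Txnrd1, Txn1 and Tkt were higher in D-gel@GSNP and Nfe2l2, Nqo1, Srxn1, Prdx1 and Pgd lower, so that 8 of 9 genes were called where 55% of all tested genes were, 27.4% higher and 27.5% lower. The median size was 0.27 over the 9 genes against 0.42 over all. The call of Pgd was lost without 1 library, D-gel@GSNP 3, and with all libraries kept but no filter on low counts (adjusted p = 0.116). The comparisons of PBS with non-SP and of D-gel@GSNP with PBS share the PBS libraries.

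L-gel@GSNP against PBS called 7 of 9 genes, 1 higher and 6 lower, where 45.6% of all tested genes were called, 21.5% higher and 24.1% lower. Txnrd1 was higher; Keap1, Nqo1, Srxn1, Prdx1, Pgd and Tkt were lower. D-gel@NP against PBS called 6 of 9, all lower, where 30.4% of all tested genes were called, 14.2% higher and 16.3% lower. These were Keap1, Nqo1, Srxn1, Txn1, Pgd and Tkt; under upper-quartile factors Txn1 was not called (log2 difference -0.161, adjusted p = 0.0684). For L-gel@GSNP the split was 2 higher and 4 lower under those factors. The calls of Txnrd1, Srxn1 and Prdx1 in L-gel@GSNP and of Txn1 in D-gel@NP were lost without single libraries and under some other alternatives. Txn1 was not called in L-gel@GSNP (log2 difference -0.145, adjusted p = 0.0659). It gained the call without L-gel@GSNP 1 (-0.206, adjusted p = 0.0114) or PBS 3 (-0.182, adjusted p = 0.0364). The median log2 difference over the 9 genes was -0.16 for L-gel@GSNP and -0.27 for D-gel@NP, against 0.001 and -0.005 over all tested genes.

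**Figure D2:**
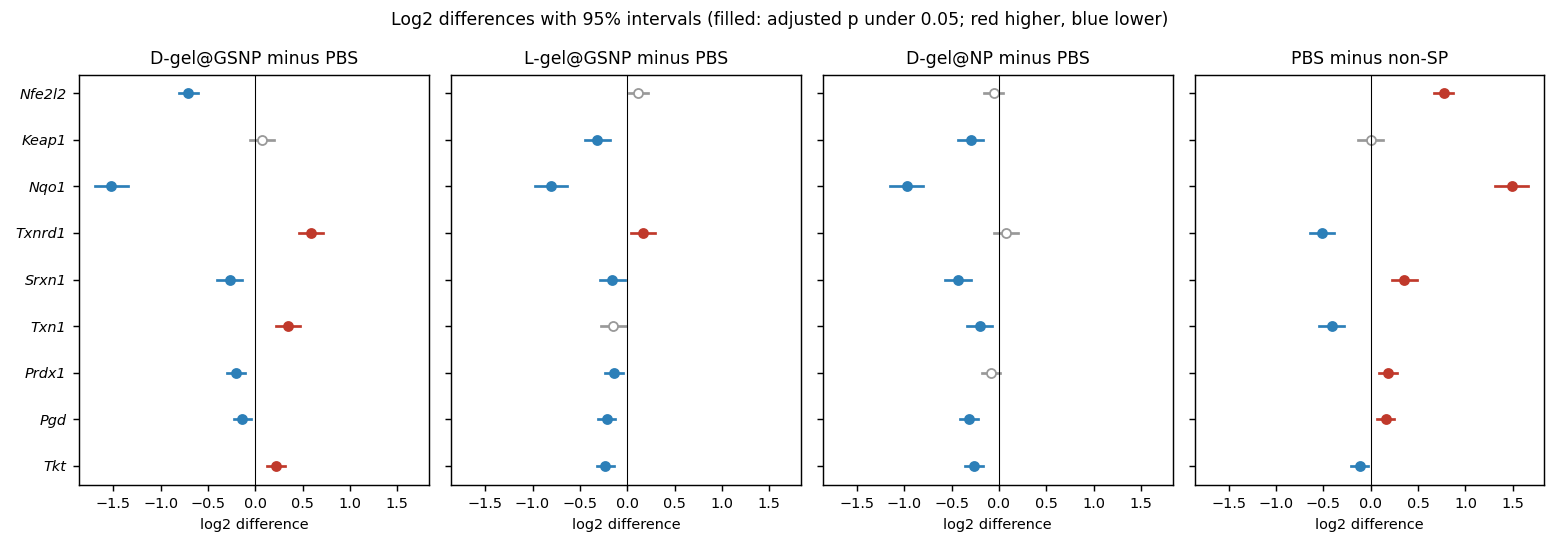
Log2 difference of each of the 9 genes with its 95% interval (horizontal axis) for the 3 hydrogel groups against PBS and for PBS against non-SP; filled symbols passed the adjusted p threshold of 0.05, red higher and blue lower. Nqo1 is lower in all 3 hydrogel groups, at log2 differences of -1.52, -0.81 and -0.98, and higher in PBS than in non-SP by 1.49.

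D-gel@GSNP and L-gel@GSNP share the code name GSNP and differ in the D or L form of the hydrogel. Keap1, Txnrd1, Txn1 and Tkt were higher in D-gel@GSNP and Nfe2l2 and Nqo1 were lower. That is 6 of 9 genes, where 61.8% of all tested genes were called, 30.5% higher and 31.3% lower. The largest difference was that of Nfe2l2 (log2 difference -0.83, adjusted p = 1.51e-12), followed by Nqo1 (log2 difference -0.72, adjusted p = 1.21e-07), Txn1 (log2 difference 0.49, adjusted p = 4.96e-07), Tkt (log2 difference 0.45, adjusted p = 1.31e-08) and Txnrd1 (log2 difference 0.43, adjusted p = 2.21e-06). Keap1 was higher in D-gel@GSNP by 0.39 on the log2 scale (SE 0.0625, adjusted p = 1.13e-05). Srxn1, Prdx1 and Pgd were not called, with 95% intervals of the log2 difference of -0.25 to 0.02, -0.17 to 0.02 and -0.01 to 0.17. Pgd gained a call without D-gel@GSNP 3 (log2 difference 0.12, adjusted p = 0.0379), Srxn1 without L-gel@GSNP 2 (-0.19, adjusted p = 0.0128) and Prdx1 without L-gel@GSNP 3 (-0.11, adjusted p = 0.0455). With all libraries kept, Srxn1 was also called under the filter of 1 CPM (adjusted p = 0.0315). It was called too by limma on filtered log2(FPKM + 1) (0.0278) and on log2(FPKM + 0.1) (0.027). Prdx1 was called under that filter (0.0303) and in every limma fit, at adjusted p-values from 0.0111 to 0.0185.

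D-gel@GSNP and D-gel@NP share the D form and differ in the code name. Keap1, Txnrd1, Srxn1, Txn1, Pgd and Tkt were higher in D-gel@GSNP and Nfe2l2, Nqo1 and Prdx1 lower, all 9 genes where 58.4% of all tested genes were called, 28.8% higher and 29.6% lower. Nfe2l2 differed by -0.65 on the log2 scale (adjusted p = 1e-10), Txn1 by 0.55 on the log2 scale (adjusted p = 1.16e-07), Nqo1 by -0.55 on the log2 scale (adjusted p = 9.42e-06), Txnrd1 by 0.52 on the log2 scale (adjusted p = 1.86e-07) and Tkt by 0.48 on the log2 scale (adjusted p = 4.88e-09). Under upper-quartile factors 4 were higher and 3 lower, without Srxn1 and Pgd. Srxn1 was also not called with RLE factors, DESeq2 or limma.

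L-gel@GSNP and D-gel@NP differ in both form and code name, and were the most alike of the hydrogel pairs by the number of genes called. Of the 9 genes, 2 were called, both higher in L-gel@GSNP, where 19.5% of all tested genes were called, 8.33% higher and 11.1% lower. They were Srxn1 (log2 difference 0.27, adjusted p = 0.00424) and Nfe2l2 (log2 difference 0.17, adjusted p = 0.0135); the call of Nfe2l2 was lost without L-gel@GSNP 3, at an adjusted p = 0.0709. The intervals of the other 7 genes lay between -0.15 and 0.34.

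Against non-SP, D-gel@GSNP called 0 of the 9 genes by the edgeR test, where 0.417% of all tested genes were called, 0.103% higher and 0.314% lower. The count was also 0 by DESeq2, by limma and under every other alternative, and 1 gene, Tkt, had an unadjusted p under 0.05 (log2 difference 0.10, adjusted p = 0.538). The largest log2 difference was 0.095 in size, and all 95% intervals lay between -0.21 and 0.22. L-gel@GSNP against non-SP called 7 of 9 genes, 3 higher (Nfe2l2, Nqo1, Srxn1) and 4 lower (Keap1, Txnrd1, Txn1, Tkt), where 59.8% of all tested genes were called, 30.6% higher and 29.2% lower. With upper-quartile factors Prdx1 was gained there (log2 difference 0.164, adjusted p = 0.00482), giving 4 higher and 4 lower. D-gel@NP against non-SP called 7, with Nfe2l2 and Nqo1 higher and Keap1, Txnrd1, Txn1, Pgd and Tkt lower, where 56.1% of all tested genes were called, 29.1% higher and 27% lower. Under upper-quartile factors, 3 were higher and 4 lower in D-gel@NP, with Prdx1 gained (log2 difference 0.197, adjusted p = 0.00118) and Pgd lost (-0.064, adjusted p = 0.235). Prdx1 was also called under the filter of 1 CPM, in the fit of the 6 libraries and in all 3 limma fits, with adjusted p-values from 0.0138 to 0.0458, and without L-gel@GSNP 1, 2 or 3, D-gel@NP 2 or PBS 1, with adjusted p-values from 0.0294 to 0.0491.

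**Figure D3:**
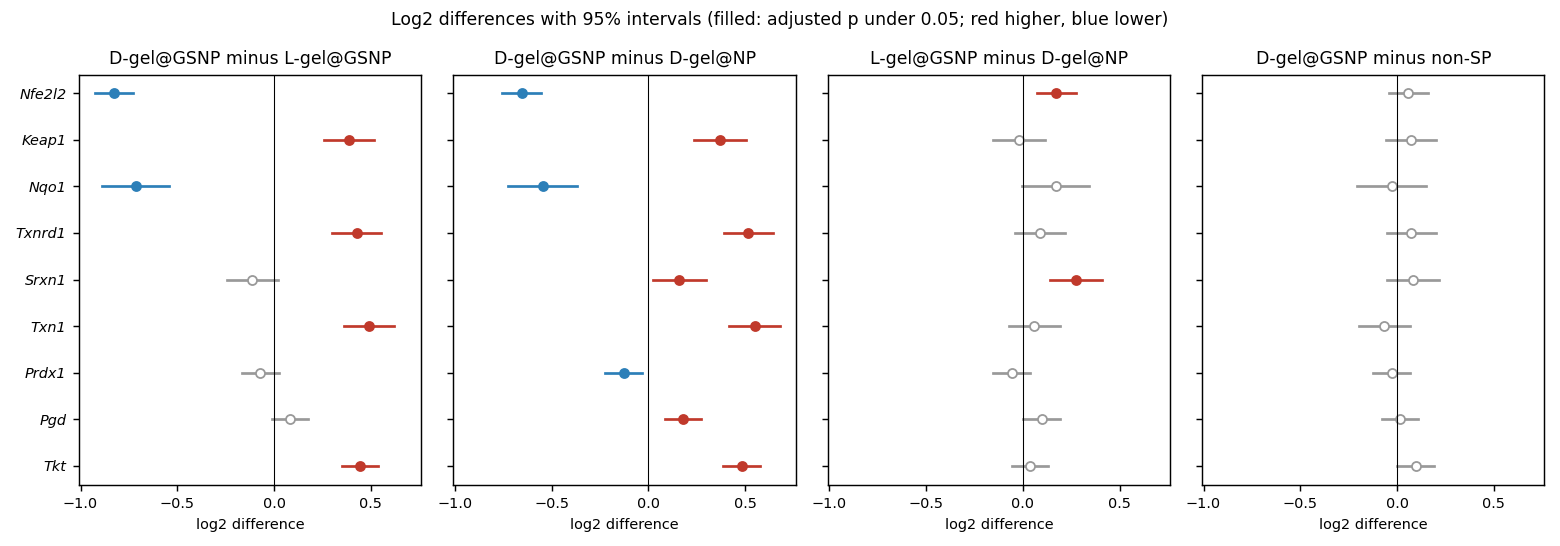
Log2 difference of each of the 9 genes with its 95% interval (horizontal axis) between the hydrogel groups and for D-gel@GSNP against non-SP; filled symbols passed the adjusted p threshold of 0.05, red higher and blue lower. Nfe2l2 is lower in D-gel@GSNP than in L-gel@GSNP at a log2 difference of -0.83 and than in D-gel@NP at -0.65, and no gene is filled against non-SP.

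Of the 60 calls among the 90 gene comparisons, 2 were differences of at least 2-fold, both of Nqo1, and 14 were of at least 1.5-fold. Another 13 calls, with log2 differences of at most 0.203 in size, were lost under at least 1 alternative, and these are weak. Between L-gel@GSNP and PBS, Txnrd1 (log2 difference 0.16, adjusted p = 0.0333) lost its call without L-gel@GSNP 2, L-gel@GSNP 3, PBS 1 or PBS 2, with adjusted p-values of 0.0633, 0.146, 0.18 and 0.0653. The call of Txnrd1 was also lost in the fit of 6 libraries (0.104) and in unfiltered limma (0.0987). Prdx1 (log2 difference -0.14, adjusted p = 0.0176) lost it without L-gel@GSNP 2, L-gel@GSNP 3 or PBS 1, at 0.092, 0.113 and 0.146. Among fits without 1 library, Srxn1 (log2 difference -0.16, adjusted p = 0.0497) kept it only without L-gel@GSNP 3 or PBS 3, and reached an adjusted p = 0.354 without L-gel@GSNP 2. With all libraries of the comparison kept, Srxn1 lost it with DESeq2 (0.0523), upper-quartile factors (0.271), no filter (0.154) and the filter of 1 CPM (0.0979). It was also lost in the fit of 6 libraries (0.095) and in every limma fit (0.0934 to 0.171). Prdx1 lost it with upper-quartile factors (0.24), no filter (0.1), the filter of 1 CPM (0.0518), the 6 libraries (0.0807) and unfiltered limma (0.0563). The libraries of L-gel@GSNP and PBS overlapped for Txnrd1 and Prdx1 and did not for Srxn1. Pgd in D-gel@GSNP against PBS (log2 difference -0.14, adjusted p = 0.0118) lost it without D-gel@GSNP 3 (0.0925) and, with all libraries kept, with no filter (0.116). Txn1 in D-gel@NP against PBS (log2 difference -0.20, adjusted p = 0.0177) lost it without D-gel@NP 1, D-gel@NP 2 or PBS 1, at 0.0578, 0.128 and 0.0992.

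In D-gel@GSNP against D-gel@NP, Srxn1 (log2 difference 0.16, adjusted p = 0.0399) was no longer called without D-gel@GSNP 1, D-gel@GSNP 2, L-gel@GSNP 1, D-gel@NP 2, D-gel@NP 3 or PBS 1, with adjusted p-values of 0.0982, 0.103, 0.0539, 0.0982, 0.218 and 0.0549. With all libraries kept, Srxn1 also lost this call with RLE factors (0.0516), the filter of 1 CPM (0.0825) and DESeq2 (0.0605). It lost the call as well with upper-quartile factors (0.635) and in every limma fit (0.219 to 0.356). Prdx1 in that comparison (log2 difference -0.13, adjusted p = 0.0197) was no longer called without D-gel@GSNP 3 (0.0566) or D-gel@NP 3 (0.0641), or with no filter (0.0676). Tkt in PBS against non-SP (log2 difference -0.12, adjusted p = 0.0294) was no longer called without PBS 1, PBS 3, non-SP 1 or non-SP 3, at 0.0998, 0.0532, 0.0514 and 0.0951. With all libraries kept, Tkt also lost this call with upper-quartile factors (log2 difference -0.066, adjusted p = 0.223). Srxn1 in L-gel@GSNP against non-SP (log2 difference 0.20, adjusted p = 0.0111) was no longer called without non-SP 2 (0.0844). Pgd in PBS against non-SP, D-gel@GSNP against D-gel@NP and D-gel@NP against non-SP kept its call without any 1 library and lost it under another filter or scaling.

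Other genes of the same pathway were counted from 5 lists, of which 70 genes were tested. Their levels are given as mean ± SD of the 3 libraries of a group. Against PBS, the 24 other NRF2 targets tested had 21 called in D-gel@GSNP (8 higher, 13 lower), 18 in L-gel@GSNP (8 higher, 10 lower) and 16 in D-gel@NP (4 higher, 12 lower), and PBS against non-SP had 20 called (12 higher, 8 lower). Beside these counts and those of the lists that follow stand the shares of all tested genes called, which were 55% for D-gel@GSNP, 45.6% for L-gel@GSNP and 30.4% for D-gel@NP against PBS and 53.7% for PBS against non-SP. The targets had calls in both directions in each of these comparisons. Ephx1, an epoxide hydrolase, had 393 ± 16.8 CPM in D-gel@GSNP, 1267 ± 30.01 CPM in L-gel@GSNP, 1219 ± 14.8 CPM in D-gel@NP, 1376 ± 37.3 CPM in PBS and 377 ± 0.691 CPM in non-SP. Gsta3, a glutathione transferase, had 5.37 ± 0.958 CPM in D-gel@GSNP, 16.8 ± 1.24 CPM in L-gel@GSNP, 23.3 ± 3.42 CPM in D-gel@NP, 35.2 ± 2.71 CPM in PBS and 4.90 ± 0.395 CPM in non-SP. D-gel@GSNP was 3.51-fold below PBS in Ephx1 and 6.57-fold below PBS in Gsta3, and PBS was 3.65-fold and 7.18-fold above non-SP. Mgst1, a microsomal glutathione transferase, was highest in L-gel@GSNP, with 35.9 ± 2.92 CPM in D-gel@GSNP, 133 ± 5.33 CPM in L-gel@GSNP, 104 ± 12.3 CPM in D-gel@NP, 81.98 ± 4.56 CPM in PBS and 34.8 ± 2.23 CPM in non-SP.

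Other named NRF2 targets had other orders of the groups. Fth1, the ferritin heavy chain, had 1379 ± 32.04 CPM in D-gel@GSNP, 771 ± 16.04 CPM in L-gel@GSNP, 862 ± 25.4 CPM in D-gel@NP, 1163 ± 40.6 CPM in PBS and 1286 ± 23.9 CPM in non-SP; it fell in L-gel@GSNP (log2 difference -0.59, adjusted p = 1.87e-10) and in D-gel@NP (log2 difference -0.43, adjusted p = 8.61e-08) against PBS. Me1, the cytosolic malic enzyme that also makes NADPH, had 403 ± 11.7 CPM in D-gel@GSNP, 170.1 ± 20.7 CPM in L-gel@GSNP, 201 ± 18.99 CPM in D-gel@NP, 298 ± 19.2 CPM in PBS and 381 ± 6.00 CPM in non-SP and fell in L-gel@GSNP against PBS (log2 difference -0.80, adjusted p = 6.64e-09). Sesn2, a stress-induced sestrin, was highest in D-gel@NP with 15.3 ± 1.15 CPM in D-gel@GSNP, 35.4 ± 1.44 CPM in L-gel@GSNP, 54.1 ± 3.33 CPM in D-gel@NP, 24.1 ± 2.49 CPM in PBS and 13.3 ± 0.507 CPM in non-SP. Slc7a11, the cystine transporter, was lower in D-gel@GSNP than in PBS (log2 difference -0.66, adjusted p = 3.53e-08) and lower in L-gel@GSNP than in D-gel@NP (log2 difference -0.66, adjusted p = 8.38e-07). Hmox1, the heme oxygenase often used as an NRF2 readout, was named after its values were seen: it had 28.4 ± 0.884 CPM in D-gel@GSNP, 31.6 ± 13.4 CPM in L-gel@GSNP, 30.00 ± 4.80 CPM in D-gel@NP, 31.8 ± 2.12 CPM in PBS and 26.2 ± 0.840 CPM in non-SP, and was called in none of the 10 comparisons, with a spread in L-gel@GSNP set by 46.4 CPM in 1 library against 20.3 and 28.2 in the others.

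Among 10 other NRF2 regulators, 9 were called in D-gel@GSNP against PBS (3 higher, 6 lower), 8 in L-gel@GSNP (6 higher, 2 lower), 6 in D-gel@NP (5 higher, 1 lower) and 9 in PBS against non-SP (6 higher, 3 lower). The count for L-gel@GSNP was 5 without L-gel@GSNP 3 and 4 without PBS 1. Sqstm1, the autophagy receptor that binds KEAP1, had 299.8 ± 15.03 CPM in D-gel@GSNP, 595 ± 2.26 CPM in L-gel@GSNP, 795 ± 24.4 CPM in D-gel@NP, 639 ± 17.2 CPM in PBS and 285 ± 2.19 CPM in non-SP. Bach1, a repressor that competes with NRF2 for its elements, had 32.4 ± 1.76 CPM in D-gel@GSNP, 56.2 ± 1.71 CPM in L-gel@GSNP, 58.9 ± 0.815 CPM in D-gel@NP, 50.2 ± 1.06 CPM in PBS and 32.3 ± 3.16 CPM in non-SP, and Cul3 had 261 ± 11.7 CPM in D-gel@GSNP, 196 ± 12.7 CPM in L-gel@GSNP, 185 ± 1.35 CPM in D-gel@NP, 179 ± 13.8 CPM in PBS and 254 ± 4.91 CPM in non-SP. Sqstm1 and Bach1 thus had the split between groups seen for Nfe2l2, and Cul3 that seen for Txnrd1.

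Of 15 other thioredoxin and peroxiredoxin genes, 11 were called in D-gel@GSNP against PBS (7 higher, 4 lower), 10 in L-gel@GSNP (5 higher, 5 lower), 5 in D-gel@NP (2 higher, 3 lower) and 12 in PBS against non-SP (5 higher, 7 lower). The count for D-gel@NP was 3 without D-gel@NP 2 and 2 without PBS 2. In the fit of all libraries the 5 were Txnip and Prdx6, higher, and Prdx3, Nxn and Glrx2, lower. Txnip, which binds and inhibits thioredoxin, had 155 ± 3.53 CPM in D-gel@GSNP, 1130 ± 83.5 CPM in L-gel@GSNP, 551 ± 74.97 CPM in D-gel@NP, 167 ± 11.6 CPM in PBS and 131 ± 3.51 CPM in non-SP. It was 6.76-fold above PBS in L-gel@GSNP, 3.29-fold above PBS in D-gel@NP and 7.30-fold lower in D-gel@GSNP than in L-gel@GSNP. Prdx6, a peroxiredoxin that uses glutathione, had 864 ± 14.8 CPM in D-gel@GSNP, 1242 ± 46.3 CPM in L-gel@GSNP, 1140 ± 74.2 CPM in D-gel@NP, 992 ± 66.8 CPM in PBS and 835 ± 4.41 CPM in non-SP. Glrx5, a mitochondrial glutaredoxin of iron-sulfur cluster assembly, had 61.4 ± 3.15 CPM in D-gel@GSNP, 28.9 ± 0.338 CPM in L-gel@GSNP, 32.2 ± 2.72 CPM in D-gel@NP, 35.8 ± 2.48 CPM in PBS and 59.7 ± 1.39 CPM in non-SP.

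Of 10 other pentose phosphate genes tested, 7 were called in D-gel@GSNP against PBS (3 higher, 4 lower), 4 in L-gel@GSNP (1 higher, 3 lower), 3 in D-gel@NP (2 higher, 1 lower) and 7 in PBS against non-SP (4 higher, 3 lower). H6pd, an enzyme that makes NADPH inside the endoplasmic reticulum, was lowest in PBS: it had 43.5 ± 1.64 CPM in D-gel@GSNP, 42.8 ± 4.36 CPM in L-gel@GSNP, 32.6 ± 1.09 CPM in D-gel@NP, 22.9 ± 2.09 CPM in PBS and 38.9 ± 0.972 CPM in non-SP. It rose in D-gel@GSNP (log2 difference 0.93, adjusted p = 7.92e-10), L-gel@GSNP (log2 difference 0.91, adjusted p = 2.86e-09) and D-gel@NP (log2 difference 0.51, adjusted p = 4e-05) against PBS. The other called genes of L-gel@GSNP were Taldo1, Prps2 and Prps1, all lower, and those of D-gel@NP were Rpe, higher, and Taldo1, lower. Rpia, the ribose isomerase, had 46.5 ± 1.71 CPM in D-gel@GSNP, 28.03 ± 0.590 CPM in L-gel@GSNP, 30.04 ± 1.54 CPM in D-gel@NP, 30.04 ± 0.792 CPM in PBS and 47.3 ± 2.31 CPM in non-SP, and Prps1, which turns ribose phosphate into the precursor of nucleotides, had 62.7 ± 0.985 CPM in D-gel@GSNP, 32.00 ± 1.96 CPM in L-gel@GSNP, 32.1 ± 5.14 CPM in D-gel@NP, 36.99 ± 0.737 CPM in PBS and 58.9 ± 1.15 CPM in non-SP; both had the split of Txnrd1.

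Of 11 other NADPH supply genes, 9 were called in D-gel@GSNP against PBS (5 higher, 4 lower), 8 in L-gel@GSNP (4 higher, 4 lower), 7 in D-gel@NP (4 higher, 3 lower) and 9 in PBS against non-SP (4 higher, 5 lower). Idh1, the cytosolic isocitrate dehydrogenase, had 184 ± 6.94 CPM in D-gel@GSNP, 367 ± 7.09 CPM in L-gel@GSNP, 413 ± 20.7 CPM in D-gel@NP, 462 ± 24.9 CPM in PBS and 189 ± 6.19 CPM in non-SP. Aldh1l2, a folate enzyme that makes mitochondrial NADPH, had 3.25 ± 0.696 CPM in D-gel@GSNP, 64.2 ± 2.12 CPM in L-gel@GSNP, 73.8 ± 4.10 CPM in D-gel@NP, 5.11 ± 0.257 CPM in PBS and 3.48 ± 0.309 CPM in non-SP, and Mthfd2, another mitochondrial folate enzyme, had 65.6 ± 1.52 CPM in D-gel@GSNP, 141 ± 11.2 CPM in L-gel@GSNP, 208 ± 17.6 CPM in D-gel@NP, 41.01 ± 1.37 CPM in PBS and 61.8 ± 1.64 CPM in non-SP. Aldh1l2 was 12.6-fold above PBS in L-gel@GSNP and 14.4-fold above PBS in D-gel@NP. Nadk2, the mitochondrial NAD kinase, was 2.02-fold above PBS in L-gel@GSNP and 1.57-fold in D-gel@NP. Me2, the mitochondrial malic enzyme, ran the other way with 76.1 ± 2.34 CPM in D-gel@GSNP, 31.2 ± 1.56 CPM in L-gel@GSNP, 28.1 ± 1.18 CPM in D-gel@NP, 44.7 ± 0.352 CPM in PBS and 70.6 ± 2.80 CPM in non-SP.

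Between D-gel@GSNP and L-gel@GSNP, 22 of 24 other NRF2 targets, 8 of 10 regulators, 12 of 15 thioredoxin and peroxiredoxin genes, 6 of 10 pentose phosphate genes and 8 of 11 NADPH supply genes were called, where 61.8% of all tested genes were. The lowest adjusted p-values per list belonged to Ephx1 (log2 difference -1.69, adjusted p = 2.05e-18), Sqstm1 (log2 difference -0.99, adjusted p = 2.05e-14), Txnip (log2 difference -2.87, adjusted p = 8.36e-18), Prps1 (log2 difference 0.97, adjusted p = 2.64e-10) and Aldh1l2 (log2 difference -4.31, adjusted p = 1.08e-18). D-gel@GSNP against non-SP called 0 of the 70 genes of the 5 lists, and 5 of them (Mafk, Fth1, Sesn2, Txnip and H6pd) had an unadjusted p under 0.05. The share of all tested genes under that unadjusted threshold is not given here, so these 5 are not read as differences. Without the filter on low counts, and in a fit of the 6 libraries alone, 1 thioredoxin gene was called. Between L-gel@GSNP and D-gel@NP, the regulators had 2 called, Sqstm1 and Mafk, both lower in L-gel@GSNP, and the NRF2 targets had 16 called, 8 in each direction, where 19.5% of all tested genes were called. Of thioredoxin and peroxiredoxin genes, 6 of 15 were called there (5 higher in L-gel@GSNP, 1 lower). Of pentose phosphate genes it was 3 of 10 (1 higher, 2 lower), and of NADPH supply genes 5 of 11 (2 higher, 3 lower).

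**Figure D4:**
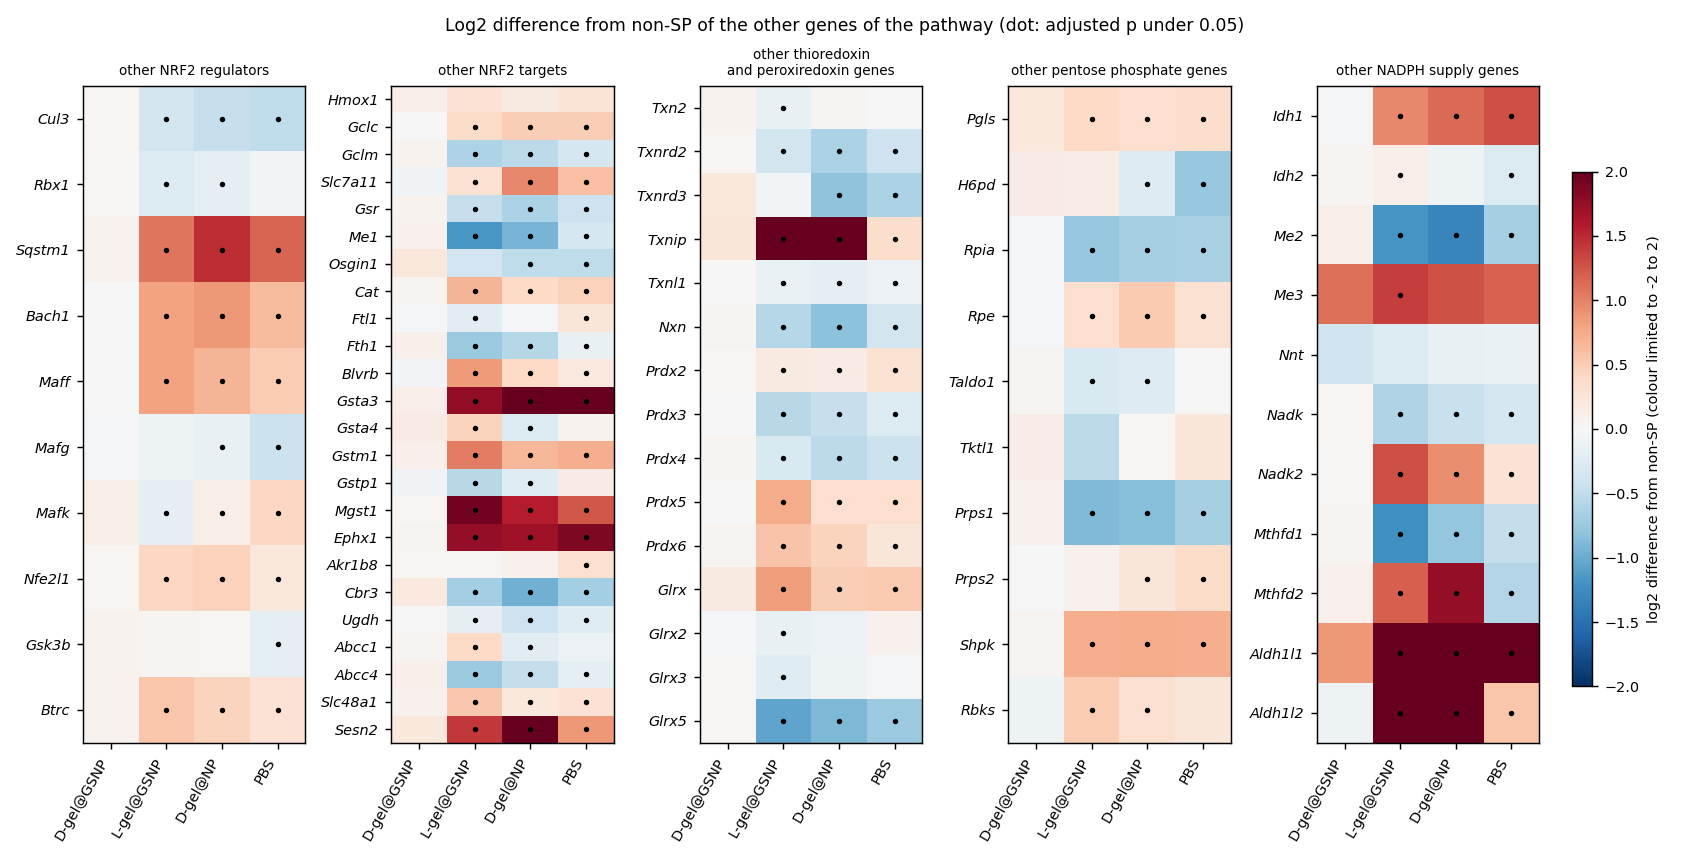
Log2 difference from non-SP (colour, limited to -2 to 2) of the tested genes of the 5 lists, in rows, for D-gel@GSNP, L-gel@GSNP, D-gel@NP and PBS, in columns; a dot marks an adjusted p under 0.05. The D-gel@GSNP column has no dot, and the L-gel@GSNP and D-gel@NP columns show Aldh1l2 and Txnip at the dark end.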

How the data were processed

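Per the submitters' processing notes, read pairs were trimmed with fastp 0.22.0, aligned with HISAT2 2.1.0 to GRCm39 and counted with featureCounts, and DESeq2 was also used; annotation, strand and multi-mapping settings are not given in the sources used here. The authors deposited whole-number counts per gene and FPKM values. For all 34259 genes, the deposited FPKM equals the count over a fixed length and the library total (relative tolerance 0.0001). Between 62.32% and 66.44% of counts from 1 to 20 were even in each library, so mates may have been counted separately.

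Symbols were taken from GENCODE for an older build, matched by gene ID (32434 matched, 1825 not). Counts were filtered (filterByExpr by group), TMM-scaled and fitted over all 15 libraries with edgeR 4.0.16 (glmQLFit, glmQLFTest) in R 4.3.3; p-values were adjusted over all tested genes of a comparison. CPM and log2 differences were computed here from the deposited counts, and 95% intervals come from the model's SE. The biological coefficient of variation was 8.06%. The procedure was tested on simulated counts.

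The 9 genes and the lists were chosen with earlier results of these data known. Named list genes were up to 4 per list and comparison with the lowest adjusted p among those called, plus those needed to account for a count of at most 5, and the genes most like each of the 9. One member of the set is not reported here. Alternatives were upper-quartile or RLE factors, no filter or a filter of 1 CPM in 3 libraries, DESeq2 1.42.0, limma 3.58.1 on log2(FPKM + 1), filtered or unfiltered, or on log2(FPKM + 0.1), only the 6 libraries compared, a replicate block, mitochondrially encoded genes left out, and each library left out. Leaving out the D-gel@GSNP libraries was added after seeing the data. Sequence reads were not analysed here.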

Additional observations from a re-analysis of the deposited data

How the results depend on the processing

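Of 60 called gene differences, 47 kept direction and call under every alternative run for their comparison, and no called difference changed sign. There were 27 alternatives, or 26 for comparisons with D-gel@GSNP, which the fit without its libraries cannot give. The number of the 9 genes called under alternatives that kept all libraries of a comparison stayed within 1.5 times its value except for L-gel@GSNP against PBS, where a fit of only the 6 libraries compared called 4 (0 higher, 4 lower) in place of 7; that fit has fewer libraries to estimate the spread. Leaving out 1 library gave 7 to 8 genes for D-gel@GSNP, 5 to 8 for L-gel@GSNP and 5 to 6 for D-gel@NP against PBS, and 7 to 8 for PBS against non-SP. It gave 6 to 7 for D-gel@GSNP against L-gel@GSNP, 7 to 9 for D-gel@GSNP against D-gel@NP and 1 to 2 for L-gel@GSNP against D-gel@NP. Against non-SP it gave 0 for D-gel@GSNP, 6 to 7 for L-gel@GSNP and 7 to 8 for D-gel@NP, and 9 for any difference.

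Upper-quartile factors moved the median of all genes from -0.04 to -0.18 between D-gel@GSNP and L-gel@GSNP on the log2 scale, and from -0.04 to -0.16 between D-gel@GSNP and D-gel@NP, with 38.1% and 38.6% of called genes higher in place of 49.4% and 49.3%. The median moved to 0.16 for L-gel@GSNP against non-SP, with 61.2% higher in place of 51.2%. For D-gel@NP against non-SP the median moved to 0.13 and the share higher was 60.9% in place of 51.9%. The share higher was 57.1% in place of 47.1% for L-gel@GSNP and 57.2% in place of 46.5% for D-gel@NP against PBS. Under these factors D-gel@GSNP against L-gel@GSNP called 8 genes, 4 higher and 4 lower, with Srxn1 and Prdx1 added.

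Replicate numbers share only a number: over 30 pairs of same-numbered libraries the correlation of their deviations ran from -0.036 to 0.045, and 9 of 30 matched their own number best. A replicate block changed 1 gene's call, that of Nfe2l2 in L-gel@GSNP against PBS (log2 difference 0.12, adjusted p = 0.048). Among the lists, the thioredoxin and peroxiredoxin count for D-gel@NP against PBS was 3 under upper-quartile factors, and the regulators' count for L-gel@GSNP against PBS was 5 with limma without a filter. In a fit of 6 libraries, L-gel@GSNP against D-gel@NP called 3 thioredoxin and peroxiredoxin genes and 1 pentose phosphate gene. The fit of all libraries called 6 of 15 and 3 of 10, where 19.5% of all tested genes were called. The cause of these changes, including those in the 6-library fits, was not tested.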
